A study of Rattus norvegicus with 22 samples.

Results

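The tumor pieces were compared with one another: 5 pieces of oral squamous cell carcinoma (OSCC) of the rat tongue that held high levels of serous salivary gland transcripts, called gland-rich, and 6 that held less, called gland-poor. They make up all 11 OSCC arrays of a series of 22 arrays. The members of each set were chosen by 1 measured value, the log2 ratio of OSCC to normal signal of the probe for Vegp2, a von Ebner's gland protein, in each animal. Pieces at 12 or more were gland-rich (animals 4, 9, 16, 17 and 24), and pieces under 12 were gland-poor (animals 11, 13, 21, 22, 25 and 26). The level of Vegp2 and of other serous products is therefore no finding. Every other p-value between the sets describes association with a split drawn on the same arrays.

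All 11 animals were male F344 rats given 4-nitroquinoline-1-oxide (4-NQO), a carcinogen of the oral mucosa, at 20 ppm in drinking water for 10 weeks. Tissue was taken 23 to 26 weeks after the first exposure, with the age labelled as 33 weeks. An OSCC piece and an adjacent, phenotypically normal piece came from the tongue of each animal, and each was hybridized to its own 1-color array. The word untreated stands in the titles of all 22 arrays and the normal pieces are labelled with treatment none, whereas the protocol takes both pieces from rats given 4-NQO. Within each tissue every piece comes from a separate animal, so the errors given measure the spread between animals, and the number of arrays limits the precision.

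The mammalian tongue carries minor salivary glands between its muscle bundles. Serous von Ebner's glands drain into the clefts of the circumvallate and foliate papillae and release lipocalins, lingual lipase and amylase, while mucous glands of the tongue base release gel-forming mucins. Acinar cells make the secreted protein, myoepithelial cells around them contract, and ducts of simple epithelium with apical tight junctions carry the secretion to the surface. A tongue piece cut for RNA can hold tumor, surface epithelium, muscle, connective tissue and gland in any mixture, and in such bulk tissue fewer cells of a type and less RNA per cell cannot be told apart.

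The oligonucleotide probes that measure the 4 serous gland markers, and the probe of the gene with the smallest p-value, Kcne1, are shown because the split and its most regular companion rest on them. Each is a sequence of 60 bases placed by the array's annotation on rat genome build rn4. No bases are capitalized, since none is singled out.
Vegp2, chr3:4862703-4862762, minus strand: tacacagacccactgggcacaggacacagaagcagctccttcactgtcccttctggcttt
Vegp1, chr3:4881854-4881913, plus strand: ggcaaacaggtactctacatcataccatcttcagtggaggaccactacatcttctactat
Lipf, chr1:237856462-237856521, plus strand: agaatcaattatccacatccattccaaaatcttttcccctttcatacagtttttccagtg
Amy1a, chr2:209553111-209553263, minus strand: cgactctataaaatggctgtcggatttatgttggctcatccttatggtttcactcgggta
Kcne1, chr11:32344803-32344862, minus strand: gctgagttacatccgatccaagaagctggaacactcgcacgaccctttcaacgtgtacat

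The Vegp2 log2 ratio was 15.42 in animal 17, 14.92 in animal 24, 13.82 in animal 9, 13.54 in animal 16 and 12.50 in animal 4. In the gland-poor animals it was 10.43 in animal 13, 5.92 in animal 11, 5.68 in animal 21, 5.37 in animal 22, 3.09 in animal 26 and 2.84 in animal 25. Animal 4 thus lay just inside the threshold and animal 13 just outside it, and the OSCC piece held more Vegp2 signal than the normal piece in every animal of both sets. The ratio also depends on the normal piece, whose Vegp2 level ran from -6.03 to -0.17. On the OSCC level alone the animals fell into the same sets, with a gap between 5.75 in animal 11 and 8.08 in animal 4. All levels here are log2 expression, in which 0 is the signal at the 75th percentile of the array.

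Each of the 4 serous markers was well above background on all 5 gland-rich and all 6 gland-poor arrays and did not overlap between the sets. As Vegp2 made the split and the other 3 are products of the same type, this is no support for the name of the sets. These markers and the other members of the list of serous gland products are given as a description. No p-value is given for any of them, though they enter the totals of called probes and genes. Vegp2 itself was 8.08 in animal 4, 8.79 in animal 9, 9.44 in animal 16, 10.22 in animal 17 and 9.47 in animal 24, against a lowest of 0.10, a median of 2.93 and a highest of 5.75 in gland-poor pieces. Vegp1, now named Lcn1, encodes a lipocalin of the same glands.

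Vegp1 was 8.01 in animal 4, 8.77 in animal 9, 9.23 in animal 16, 10.07 in animal 17 and 9.34 in animal 24, with gland-poor pieces at -1.54, 1.69 and 4.66 as lowest, median and highest. Lipf, the lipase that lingual serous glands secrete, was 8.12, 8.91, 9.47, 10.39 and 9.55 in the gland-rich animals in the same order, against -1.09, 1.91 and 4.77. Amy1a, salivary amylase, was 7.25, 8.27, 8.52, 9.57 and 8.20, against -3.99, 0.05 and 2.31. Animal 17 was highest and animal 4 lowest of the gland-rich pieces for each of these 4 genes, while the gland-poor pieces of animals 11, 13 and 21 held intermediate levels and those of animals 22, 25 and 26 the lowest.

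**Figure D1:**
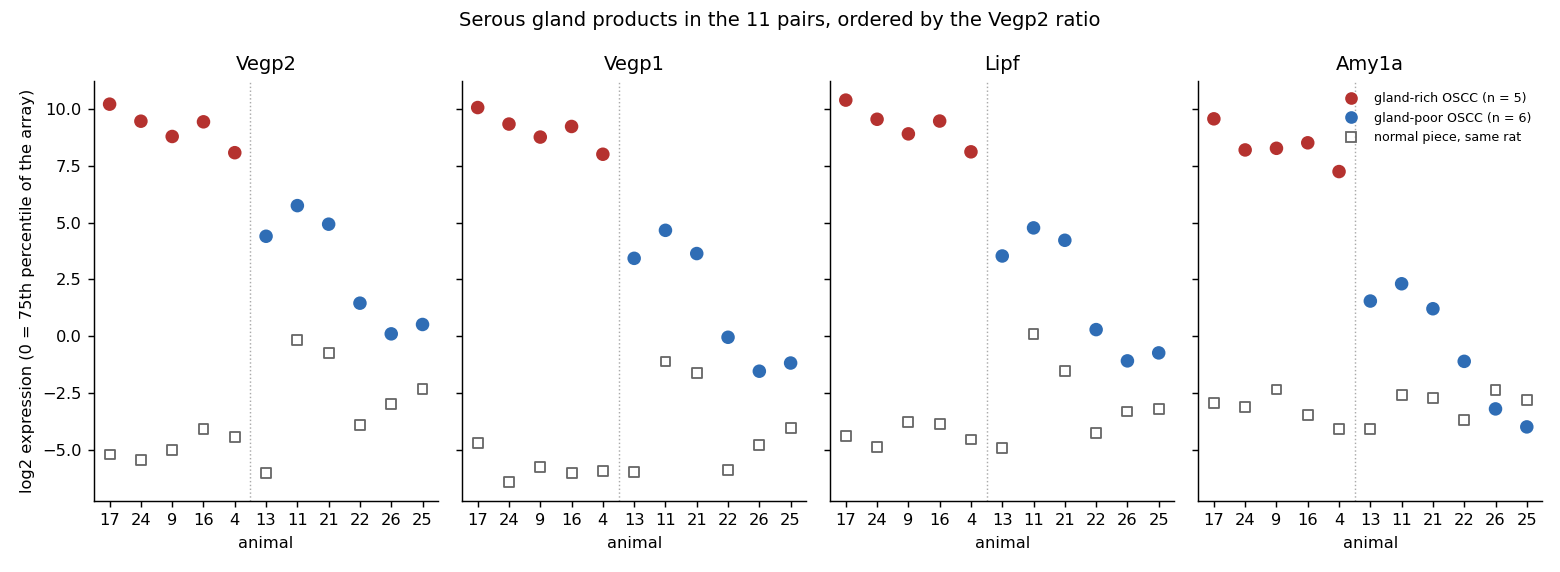
Log2 expression (0 is the 75th percentile of the array) of Vegp2, Vegp1, Lipf and Amy1a in each animal, ordered by its Vegp2 ratio, with OSCC pieces as filled circles (5 gland-rich, 6 gland-poor) and the normal piece of the same rat as an open square. All 5 gland-rich pieces lie above all 6 gland-poor pieces for each gene, animals 11, 13 and 21 lie between, and the normal pieces of animals 11 and 21 have the highest Vegp2 of the normal pieces at -0.17 and -0.74.

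Of 46 serous gland products on the array, 28 were well above background on at least 1 OSCC array, and 16 were higher in all 5 gland-rich pieces than in all 6 gland-poor pieces. Over all 19245 genes, each taken by its brightest probe, 1.24% did not overlap in that direction and 0.218% in the other. The differences of these 16 ran from 2.45 for Dmbt1 to 10.12 for Prpmp5 on the log2 scale. The gland-rich pieces had 25 to 27 of the 46 products well above background and the gland-poor pieces 13 to 19, and the summed signal of the list ranged from 10.61 to 12.82 against 6.21 to 7.76 in log2 units.

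The serous products did not all follow 1 order of animals. Bpifb1, a secreted lipid-binding protein of the airway and mouth, was 8.07, 8.81, 9.36, 10.17 and 9.55 in animals 4, 9, 16, 17 and 24, close to Lipf, and -1.09, 1.89 and 4.84 as lowest, median and highest in gland-poor pieces. Bpifa2, the parotid secretory protein of the same family, was 2.95, 4.08, 5.07, 5.24 and 1.94, against -7.41, -5.90 and -2.51, so that animal 24 and not animal 4 was lowest. Prpmp5, which encodes a salivary proline-rich protein, was 7.01, 6.88, 6.95, 8.64 and 6.22, against -6.17, -3.47 and 0.77, again lowest in animal 24.

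Genes called between the sets were almost all higher in gland-rich pieces, also with serous products left out. Of 30367 probes, those of serous products included, 196 passed an adjusted p of 0.05 and a 2-fold change in limma (0.645% of probes), 191 of them higher (0.629%) and 5 lower (0.0165%) in gland-rich pieces. Of the 191 higher probes 184 did not overlap between the sets, which the call itself favors, so this count is a description. Over all probes 1.07% did not overlap in that direction and 0.224% in the other. By gene, 141 of 19245 were higher (0.733%) and 2 lower (0.0104%). Of the 141, 16 were serous products. With the 46 serous products left out, 125 of 19199 genes were higher (0.651%) and 2 lower (0.0104%), and a further 36 of the higher probes have no gene name here. The median difference was 3.72 on the log2 scale over the 141 genes and 3.46 over the 125, and the smallest of both was 1.46, while the median over all probes was -0.11.

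Most of these 125 genes were near or under background in the gland-poor pieces. There were 50 that were well above background on none of the 6 gland-poor arrays and 31 that were so on all 6, of which 30 were also well above background on all 11 arrays without overlap. The OSCC pieces of animals 4, 9, 16, 17 and 24 had 120, 125, 122, 123 and 124 of the 125 genes well above background. The gland-poor pieces had 60 in animal 11, 48 in animal 13, 52 in animal 21, 42 in animal 22, 58 in animal 25 and 37 in animal 26, and the 11 normal pieces 22 to 42. The lack of overlap and the count in gland-rich pieces were set partly by the call itself, so both are a description. Over all genes 1.24% did not overlap with gland-rich pieces higher.

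**Figure D2:**
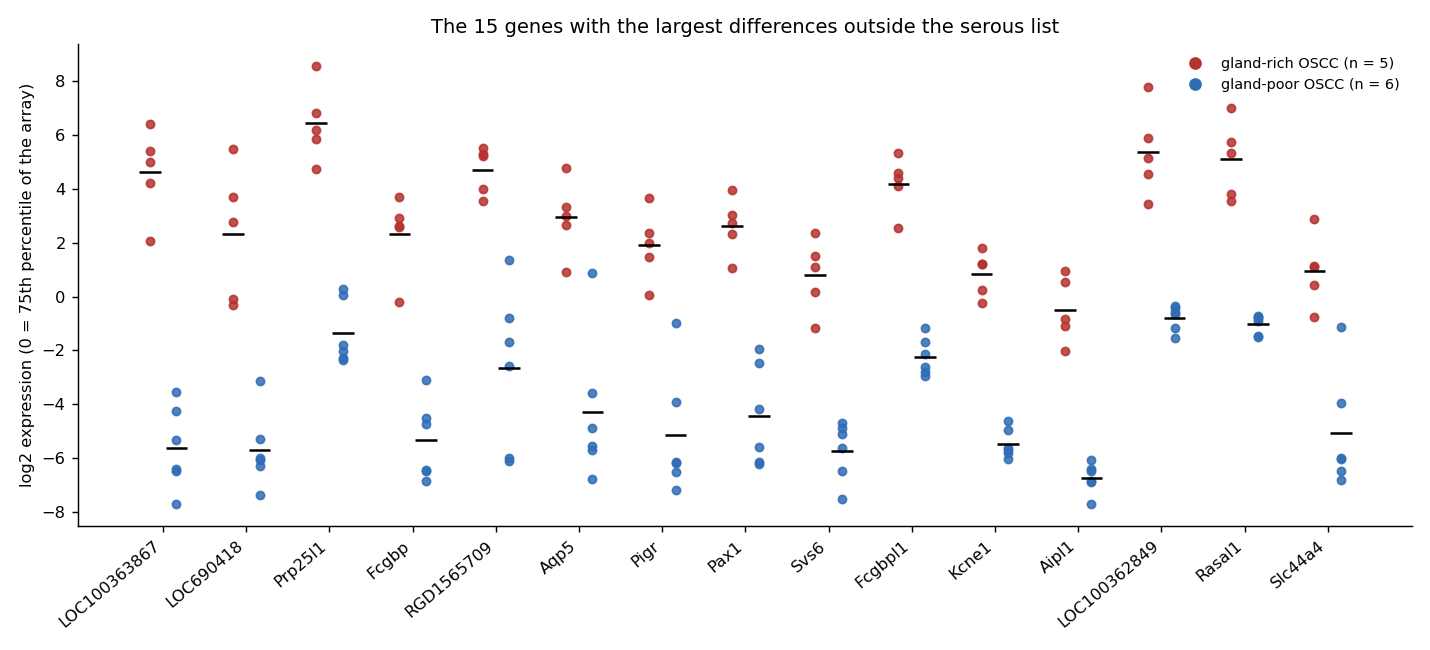
Log2 expression in each OSCC piece of the 15 genes with the largest differences outside the serous list (5 gland-rich points in red, 6 gland-poor points in blue, black bars are means). No gene overlaps between the sets, from LOC100363867 with a difference of 10.25 to Slc44a4 with 6.02, and Aqp5 comes closest to overlap, with 0.86 in a gland-poor piece and 0.93 in a gland-rich piece.

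The largest differences after the serous list included further secreted proteins of salivary type. LOC100363867, annotated as similar to LRRGT00106, was 2.07, 5.43, 5.01, 6.40 and 4.24 in animals 4, 9, 16, 17 and 24 against -7.70, -5.87 and -3.55 as lowest, median and highest in gland-poor pieces. It rose by 10.25 ± 0.86 (SE) on the log2 scale (adjusted p = 0.00035), the largest difference of any gene outside the serous list. Prp25l1, an acidic proline-rich protein gene that the array lists as RGD1559532, was higher by 7.80 ± 0.71 (adjusted p = 0.00041), and a further probe of it by 8.80 (adjusted p = 0.00037).

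LOC690418, annotated as similar to the proline-rich protein PRP25, rose by 8.02 ± 1.06 (adjusted p = 0.0044) and LOC100362849, a proline-rich salivary protein, by 6.16 ± 0.63 (adjusted p = 0.00096). By their annotation these 3 proline-rich genes are gland products as well, although the list of serous products did not hold them. They therefore remain among the genes counted outside that list. As the split was made on a serous product, their p-values are a description and no support for it. Svs6, named for its secretion by the seminal vesicle, was well above background on all 5 gland-rich arrays and none of the gland-poor ones, at least 37.5-fold higher (adjusted p = 0.00096). Such a bound compares the gland-rich mean with gland-poor signals raised, per array, to at least the lowest signal counted as well above background. It holds for the main processing only, as over the alternatives the log2 difference fell to 3.35 for Svs6 and to 3.32 for Kcne1. These are smaller folds than the bounds given. RGD1565709, annotated as similar to the proteinase inhibitor ovostatin-2, rose by 7.36 ± 1.23 (adjusted p = 0.017), a call lost without animal 9, 16 or 17 (adjusted p up to 0.066).

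Kcne1 had the smallest p of all probes. It encodes a small membrane subunit that slows the opening of the potassium channel KCNQ1 and is found in secretory epithelia. Its levels were 0.23 in animal 4, 1.21 in animal 9, 1.22 in animal 16, 1.81 in animal 17 and -0.24 in animal 24, against -6.06, -5.67 and -4.62 as lowest, median and highest in gland-poor pieces. It was well above background on none of the 6 gland-poor arrays, and was at least 38.9-fold higher in gland-rich pieces (adjusted p = 9.2e-05). The gland-poor pieces of animals 11 and 13, which held intermediate serous levels, had Kcne1 at -4.97 and -4.62, within the range of -6.72 to -4.56 of the normal pieces.

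Genes of fluid and ion transport in acini were next. Aqp5, the apical water channel of serous acini, was 0.93, 3.34, 3.0, 4.79 and 2.68 in animals 4, 9, 16, 17 and 24. Its gland-poor levels were -6.77, -5.23 and 0.86 as lowest, median and highest, the highest in animal 21. The sets did not overlap, and Aqp5 rose by 7.22 ± 1.20 (adjusted p = 0.017). Its call was lost without any one of animals 9, 13, 16, 17 or 26, with an adjusted p of up to 0.065.

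Chrm3, the muscarinic receptor through which acetylcholine drives salivary secretion, was well above background in no gland-poor piece and was at least 5.64-fold higher (adjusted p = 0.018). Slc44a4, a choline transporter-like protein of epithelia, was -0.78, 1.12, 1.12, 2.88 and 0.41 against -6.82, -6.02 and -1.13, and rose by 6.02 ± 1.00 (adjusted p = 0.017). Both calls were lost without animal 9, 13, 16 or 26, and that of Slc44a4 also without 17, with an adjusted p of up to 0.066 for Chrm3 and 0.062 for Slc44a4. Rasal1, a GTPase-activating protein for Ras, was well above background on all 11 arrays. It was 3.56, 5.77, 5.33, 7.02 and 3.81 against -1.49, -0.87 and -0.71, a rise of 6.12 ± 0.55 (adjusted p = 0.00037) from a gland-poor level that varied little.

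Transcription factors known from secretory and gland epithelium were among the called genes. Bhlha15 (also called Mist1), which organizes the secretory apparatus of serous acinar cells, was 0.30, 2.04, 1.83, 3.20 and 1.22 in animals 4, 9, 16, 17 and 24 against -6.01, -2.77 and -1.75 as lowest, median and highest. It rose by 4.84 ± 0.73 (adjusted p = 0.01). Foxa2, a forkhead factor of endodermal and gland epithelium, was -3.14, -0.98, -1.13, 0.22 and -1.72, and as it was well above background on no gland-poor array its rise was at least 8.48-fold (adjusted p = 0.006). Pax1, a paired-box factor of pharyngeal pouches and the skeleton, was 1.05, 3.04, 2.73, 3.96 and 2.33 against -6.24, -4.89 and -1.94, and rose by 7.05 ± 0.85 (adjusted p = 0.0026), and a further probe, well above background on no gland-poor array, was at least 9.46-fold higher (adjusted p = 0.0045).

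Sox10, which acts in salivary acinar and myoepithelial progenitors and in Schwann cells, was -0.38, 0.68, 0.41, 1.44 and 0.15 against -3.72, -2.11 and -1.76, a rise of 2.78 ± 0.40 (adjusted p = 0.0077). The rest of the Schwann cell and nerve list of 24 genes held no call. Etv1, an ETS factor, rose by 2.84 ± 0.49 (adjusted p = 0.02), a call lost without animal 9, 11, 13, 16, 22 or 26 at an adjusted p of up to 0.08. Xbp1, the factor that expands the secretory pathway, was 2.05, 2.74, 2.59, 3.44 and 2.49 against 1.56, 1.75 and 2.01, without overlap, but its difference of 0.89 ± 0.24 did not pass (adjusted p = 0.23).

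Across the list of acinar regulators and fluid secretion, 6 of 40 genes rose (Foxa2, Aqp5, Etv1, Sox10, Chrm3 and Bhlha15) and none fell, with 31 differences above 0 and a median of 0.84, where all genes had 0.733% higher and a median of -0.10. Over the alternatives the count of higher genes ran from 0 to 12, and all 6 lost their call with slide as a term. Of 72 genes of protein folding and secretion in the endoplasmic reticulum, none passed in limma, 13 had an unadjusted p under 0.05, and 68 had differences above 0, with a median of 0.27. Over all 19245 genes 1051 had such a p (5.46%) and 7242 had differences above 0 (37.6%). The 4 of the 72 genes with the largest statistics were Derl3 (2.27, adjusted p = 0.16), Mcfd2 (0.91, adjusted p = 0.2), Fkbp11 (1.74, adjusted p = 0.27) and Dnajc10 (1.02, adjusted p = 0.3). These were also the only 4 of the 72 that did not overlap between the sets, where 1.24% of all genes did not overlap in that direction.

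Duct and simple epithelium genes formed another called group, with 6 of 28 higher (Pigr, Cldn10, Krt18, Cldn3, Cldn7 and Atp6v1b1) and none lower. Of the 28 differences 21 were above 0, the lowest was -0.65 and the median 1.37. All genes had 0.733% higher and a median of -0.10. The count of called genes ran from 0 with slide as a term to 13 at the unadjusted p of the methods' t-test. It was 11 without animal 4 and 3 to 6 without any other single animal. Pigr, the receptor that carries polymeric immunoglobulin across gland epithelium into saliva, was 0.07, 2.37, 2.01, 3.65 and 1.46 in animals 4, 9, 16, 17 and 24 against -7.21, -6.15 and -0.99 as lowest, median and highest. It rose by 7.07 ± 1.05 (adjusted p = 0.0089). Cldn3, a tight junction claudin, was 1.28, 2.27, 2.21, 3.73 and 1.94 against -3.10, -2.26 and -0.05, a rise of 4.32 ± 0.56 (adjusted p = 0.0038). For both genes the highest gland-poor level was that of animal 21.

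Cldn10, a claudin that forms ion-selective pores, rose by 5.77 ± 0.86 (adjusted p = 0.0089), and Atp6v1b1, a proton pump subunit, was at least 3.02-fold higher (adjusted p = 0.017). Krt18, a keratin of simple epithelium, was 1.31, 2.79, 2.96, 4.67 and 2.70 against -5.98, -1.91 and 0.00, a rise of 5.56 ± 1.09 at the edge of the threshold (adjusted p = 0.047). Its partner keratin Krt8 did not overlap either, but differed by 3.0 ± 0.88 and did not pass (adjusted p = 0.34). The call of Krt18 was lost without any one animal but 4 or 21 (adjusted p up to 0.14), that of Cldn7 without any but 4, 11 or 22 (up to 0.11), and that of Atp6v1b1 without 9, 13, 16, 17 or 26 (up to 0.066).

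Mucous gland products were called less evenly. Of 25 such genes 3 rose (Fcgbp, Gcnt3 and Muc20), none fell, 22 differences were above 0 and the median was 1.54, against 0.733% higher and a median of -0.10 over all genes. The count was 1 with slide as a term, 6 without animal 21 and 8 at the unadjusted p of the methods' t-test. Fcgbp, a mucin-bound protein, was -0.19, 2.91, 2.63, 3.72 and 2.60 in animals 4, 9, 16, 17 and 24 against -6.85, -5.58 and -3.10 as lowest, median and highest. It rose by 7.68 ± 0.80 (adjusted p = 0.0011), and its relative Fcgbpl1 by 6.43 ± 0.48 (adjusted p = 0.00016). Gcnt3, which branches mucin O-glycans, rose by 5.68 ± 0.67 (adjusted p = 0.0024), and Muc20, a membrane mucin, was at least 4.41-fold higher (adjusted p = 0.0078).

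The gel-forming mucins themselves overlapped between the sets. Muc5b, the main mucin of tongue mucous glands, was -0.45, 2.59, 4.44, 6.64 and 3.34 in gland-rich pieces against -6.65, -4.51 and 4.11, and its difference of 6.39 ± 1.79 did not pass (adjusted p = 0.29). Muc19, a gel-forming mucin of salivary glands, was -6.43, -1.34, 1.32, 3.67 and 0.15 against -7.11, -6.29 and 1.14 (4.67 ± 1.84, adjusted p = 0.79). The highest gland-poor level of both was in animal 21, at 4.11 and 1.14. Without animal 21, the difference of Muc5b passed (adjusted p = 0.017), as did that of Spdef, the factor of goblet and mucous cells, which was 5.10 ± 1.05 with all animals (adjusted p = 0.062) and had an adjusted p of 0.0072 without animal 21 and 0.025 without animal 4. The summed mucous signal of animal 4, a gland-rich piece, was 2.72, near the 2.71 of animal 11 and below the 7.59 of animal 21, both gland-poor pieces, so the mucous list did not follow the serous split animal by animal.

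Of the genes listed for immune cells and their signals, 2 chemokines of epithelium rose and no leukocyte marker was called. Over all genes 0.733% were called higher. Ccl28, a chemokine that mucosal and salivary epithelium releases to draw IgA plasma cells, was -0.83, 0.84, 0.48, 2.07 and 0.19 in animals 4, 9, 16, 17 and 24 against -6.89, -5.86 and -3.04 as lowest, median and highest. It rose by 5.95 ± 0.67 (adjusted p = 0.0017). Cxcl17, a chemokine of mucosal epithelium, was -0.68, 1.22, 1.48, 0.99 and 0.56 against -6.30, -4.31 and -2.20, a rise of 5.21 ± 0.67 (adjusted p = 0.0038).

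Apart from Ccl28, none of the 24 genes listed for B and plasma cells was called, only 3 of the 24 differences were above 0 and the median was -0.54. The summed signal of that list was 2.20 to 4.03 in gland-rich and 1.64 to 4.65 in gland-poor pieces. Apart from Cxcl17, none of 46 chemokines and interleukins was called (median -0.72). Among T and cytotoxic cells (33 genes, 3 at an unadjusted p under 0.05, median -0.56), macrophages (28, 0, -0.31) and neutrophils (30, 3, -0.48) limma called none. The T-cell factor Tbx21 was 2.90, 4.88, 3.93, 5.46 and 2.77 against 1.92, 2.27 and 2.83, with a difference of 1.68 ± 0.47 that did not pass (adjusted p = 0.28). Interferon-stimulated genes (33 genes, median -0.52) held no call and had 2 at an unadjusted p under 0.05.

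Of 25 taste cell genes 1 rose (4%), where 0.733% of all genes were called higher. Gng13, the G protein gamma subunit of taste transduction, was -2.07, -2.05, -1.88, -0.40 and -2.50 in animals 4, 9, 16, 17 and 24 against -6.00, -5.19 and -4.19 as lowest, median and highest. It rose by 3.46 ± 0.41 (adjusted p = 0.0024), and its further probe, well above background on no gland-poor array, was at least 3.47-fold higher (adjusted p = 0.016). The other 24 taste genes held none with an unadjusted p under 0.05, and the list had a median of -0.05, close to that of all genes.

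**Figure D3:**
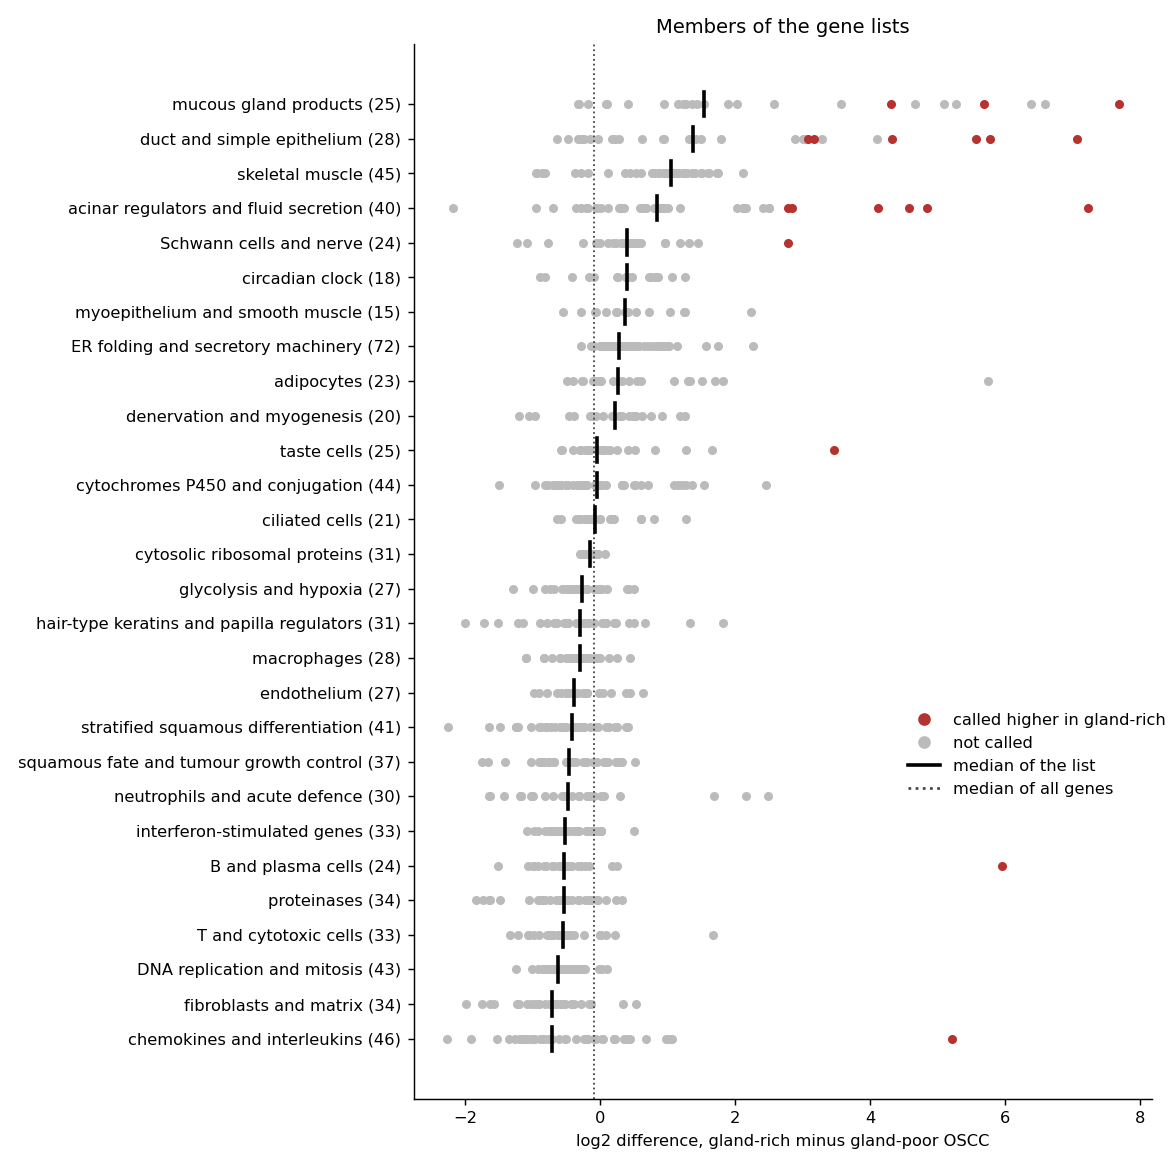
Log2 difference, gland-rich minus gland-poor OSCC, of each gene on the array in 28 gene lists (points, red where called higher, with the number of genes in brackets), with the median of each list as a black bar and the median of all genes, -0.10, as a dotted line. Called genes lie in the mucous (3), duct (6), acinar (6), taste (1), B cell (1), chemokine (1) and Schwann (1) lists, Sox10 being in both the acinar and the Schwann list, and no list holds a gene called lower.

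The markers of the other tissues in a tongue piece moved as follows, and their part in the results above was not tested. Skeletal muscle genes had a median difference of 1.04 with 38 of 45 above 0, but limma called none, 1 had an unadjusted p under 0.05, and the summed signal was 9.47 to 12.39 in gland-rich and 7.47 to 12.44 in gland-poor pieces. Animals 21 and 22 among the gland-poor and animal 24 among the gland-rich pieces held the most, at 12.44, 12.15 and 12.39. Fibroblast and matrix genes had a median of -0.72 with 2 of 34 above 0, none called and none at an unadjusted p under 0.05, and a summed signal of 6.81 to 8.82 against 7.63 to 9.74. Col1a1, the main collagen chain, was 4.44, 5.01, 5.67, 2.33 and 3.48 against 3.45, 6.61 and 6.93 (difference -1.64 ± 0.75, adjusted p = 0.95).

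Genes of stratified squamous epithelium overlapped between the sets, but they do not measure tumor content, since the normal pieces held them too. The mean log2 expression of the list was 0.35 to 3.30 in gland-rich and 2.73 to 3.44 in gland-poor OSCC pieces. In the normal pieces of the same animals it was 1.74 to 3.32 and 1.03 to 2.66. Stratified squamous differentiation genes had a median of -0.43 with 8 of 41 above 0, none called in limma and 1 at an unadjusted p under 0.05. Krt5, the keratin of basal keratinocytes, was 5.07, 6.11, 6.27, 5.03 and 2.34 against 4.78, 6.45 and 6.87 (difference -1.26 ± 0.65, adjusted p = 0.95), and Tp63, the master factor of stratified epithelium, was 3.20, 3.26, 3.15, 2.61 and 0.77 against 2.73, 3.63 and 4.89 (adjusted p = 0.95). Animal 24 was the lowest of all 11 in both genes. Genes of DNA replication and mitosis had a median of -0.63 with 2 of 43 above 0, none called and none at an unadjusted p under 0.05.

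Myoepithelial and smooth muscle genes had a median of 0.37 and 3 of 15 at an unadjusted p under 0.05, with none called. Cnn1, calponin of contractile cells, differed by 2.23 ± 0.56 (adjusted p = 0.18, or 0.028 without animal 4). Adipocyte genes had a median of 0.26 with none of 23 called, and Thrsp, a regulator of lipid synthesis, was 0.16, 3.97, 2.81, 4.43 and 2.91 against -5.80, -3.68 and 1.60 (difference 5.74 ± 1.20, adjusted p = 0.068). The highest gland-poor level of Thrsp was in animal 21, without which the adjusted p of Thrsp was 0.0076, and without animal 4 it was 0.029.

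Only 5 probes were lower in gland-rich pieces, for 2 genes by their brightest probe. RT1-T18, a class I histocompatibility gene, was 2.90, 2.09, 2.92, 2.76 and 2.78 in animals 4, 9, 16, 17 and 24 against 3.52, 4.08 and 4.59 as lowest, median and highest, and fell by 1.38 on the log2 scale (SE 0.24, adjusted p = 0.022). Its other probes stayed near background in all OSCC pieces, and related class I transcripts on 1 probe cannot be told apart. Ctf1, the cytokine cardiotrophin-1, was -5.31, -5.74, -5.47, -5.63 and -3.14 against -3.24, -2.70 and -2.0, and fell by 2.42 (SE 0.45, adjusted p = 0.037). It was well above background on 2 of the gland-rich and all 6 gland-poor arrays, and the sets overlapped through animal 24.

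The other lower probes were a dimmer probe of the ribosomal protein gene Rps19 (-1.02, adjusted p = 0.014) and 2 probes with no gene name here (-2.65 and -1.35, adjusted p = 0.003 and 0.015). RT1-T18 lost its call without any one of animals 9, 11, 16, 17, 25 or 26 (adjusted p up to 0.068), and Ctf1 without any animal but 24 (up to 0.13). Genes that did not overlap and were lower without being called included Plgrkt, a plasminogen receptor (-0.89 ± 0.16, adjusted p = 0.034, under 2-fold), LOC680964 (-2.98 ± 0.61, adjusted p = 0.058, or 0.015 without animal 4 and 0.021 without 24), Edc4 (-0.72 ± 0.15, adjusted p = 0.072) and Gstm1, a glutathione transferase (-1.50 ± 0.49, adjusted p = 0.49).

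Ptgs2, the inducible cyclooxygenase, took no side. It was -0.05, -1.50, -1.61, -4.97 and -5.67 in animals 4, 9, 16, 17 and 24 against -6.26, -0.01 and 1.05 as lowest, median and highest, and differed by -0.99 ± 1.61 (adjusted p = 0.95).

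The normal pieces of the same animals were compared in the same way, to see whether the sets also differed outside the tumor. Limma called none of 30367 probes (0%), 1971 had an unadjusted p under 0.05, the smallest adjusted p was 0.23, and the methods' t-test with Benjamini-Hochberg adjustment also called 0. Of the 141 genes higher in gland-rich OSCC pieces, 10 had an unadjusted p under 0.05 between the normal pieces and 57 were well above background on any normal array. Among the 125 outside the serous list these were 8 (6.4%) and 50 (40%), where over all 19245 genes they were 1338 (6.95%) and 12647 (65.7%).

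Many keratin genes of the tongue surface nevertheless lay to one side on average, though nearly all overlapped between the sets. Of 41 stratified squamous genes, 22 had an unadjusted p under 0.05, all 22 higher in the normal pieces of animals with gland-rich OSCC, and the median difference was 0.92. That count was 11 without animal 4, 13 without 22, 14 without 16 or 21 and 30 without 24, and 14 with the Vegp2 ratio as a continuous term. Of 31 genes of hair-type keratins and papilla regulators, which mark the filiform papillae, 20 had such a p, 19 of them higher, and the median was 1.48. Without single animals this count was 14 to 22, and with the Vegp2 ratio as a continuous term it was 5 and the median 0.89. Over all genes 6.95% had such a p and the median was -0.09. None of these genes passed after adjustment. All 41 squamous genes overlapped between the sets, as did all of the 31 hair-type genes but Asb9. Over all genes 0.4% did not overlap in that direction. Differences were above 0 for 34 of the 41 and 23 of the 31. Krt5 (-0.15), Krt14 (0.15), Krt15 (-0.25) and Tp63 (-0.32) of the squamous list differed little.

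Krt31, a hair-type keratin, was 2.54, 1.72, 3.68, 2.05 and -2.32 in the normal pieces of animals 4, 9, 16, 17 and 24 and -2.77 to 1.27 in the other 6 (difference 2.79, adjusted p = 0.69). Tgm3, which crosslinks the cornified layer, was 6.0, 6.05, 6.08, 5.57 and 4.73 against 3.54 to 5.52 (difference 1.21, adjusted p = 0.67). Animal 24 was the lowest of its set for both genes and lay within the range of the other set. In the OSCC pieces the difference of Krt31 was -2.0 and that of Tgm3 -0.79, both with an adjusted p of 0.95.

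**Figure D4:**
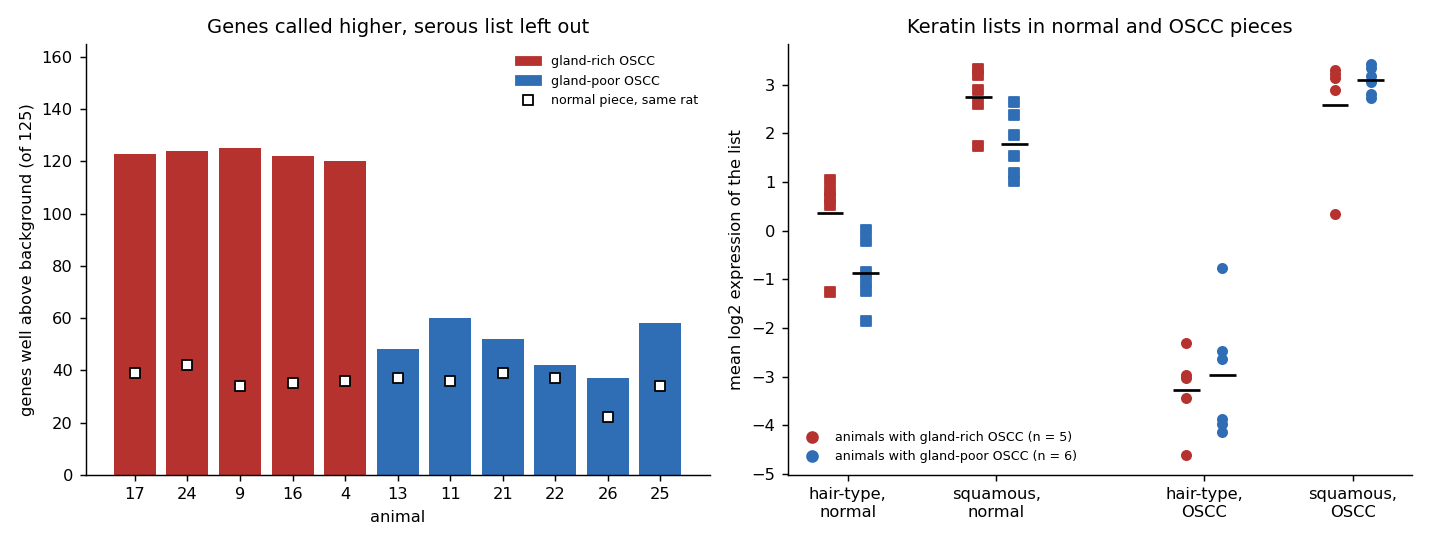
Left, number of the 125 genes called higher outside the serous list that were well above background in the OSCC piece (bars, red gland-rich, blue gland-poor) and in the normal piece of the same rat (squares), 120 to 125 against 37 to 60 and 22 to 42. Right, mean log2 expression of the hair-type and stratified squamous lists in normal (squares) and OSCC (circles) pieces of each animal by set with the mean as a bar, which in normal pieces is -1.27 to 1.05 against -1.86 to 0.01 for hair-type genes and 1.74 to 3.32 against 1.03 to 2.66 for squamous genes.

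Array quality and position were set beside the split. The signal at the 75th percentile was 339 to 1414 over the OSCC arrays, and 52.3% to 65.5% of probes were well above background. The log2 75th percentile was higher by 0.20 in gland-rich arrays (two-sided exact permutation test over 462 splits, p = 0.621, adjusted over 2 measures 0.621) and the share well above background by 2.19 percentage points (exact p = 0.431, adjusted 0.621), where the smallest p possible was 0.00433. The OSCC arrays of animals 4 and 9, both gland-rich, lay alone on 1 slide scanned on the first scan day with the normal arrays, and the other 9 OSCC arrays on 3 slides of the second scan day. On the second day alone 226 probes were called, 174 of them shared with the 196. There RGD1565709, Krt18, Cldn7, Scgb1a1, RT1-T18 and Ctf1 lost their call (adjusted p of 0.075 to 0.19). With slide as a term, which leaves 2 slides that hold both sets, 30 were called, 28 of them shared. Of the largest 15 genes, LOC690418, RGD1565709, Aqp5, Pigr, Pax1 and Slc44a4 lost their call with slide as a term (adjusted p of 0.068 to 0.16), as did Gcnt3, Muc20, Ccl28, Cxcl17, Gng13, Cldn3, Cldn10, Bhlha15, Foxa2, Sox10, Krt18, Cldn7, Etv1, Chrm3 and Atp6v1b1 (0.061 to 0.18) and the lower genes RT1-T18 and Ctf1 (0.2 and 0.14). After normexp background correction Muc20, Gng13, Atp6v1b1, Foxa2, Etv1, Chrm3, RT1-T18 and Ctf1 lost theirs (0.08 to 0.85), the difference of Ctf1 being -0.16.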

How the data were processed

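Total RNA of 22 tongue pieces (11 OSCC and 11 adjacent normal) was hybridized to Agilent rat 1-color arrays of 42877 spots and 30367 probes. The deposited values are intensity, the processed signal that the authors obtained with Agilent Feature Extraction 9.5.3.1, in which local background is subtracted. The authors' own deposited value table, one ratio per probe of linear signal to the array's 75th percentile, was used as an alternative. No further authors' step enters the scanner values. Pieces were named from their titles by animal number.

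Spots with outlier flags were left out (0.975% of spots), spots of a probe were averaged, and log2 values were taken relative to each array's 75th percentile. The Vegp2 ratio of OSCC to normal was computed from these deposited signals. Differences between gland-rich and gland-poor pieces were fitted by limma 3.58.1 under R 4.3.3 (lmFit and eBayes, two-sided), without covariates and with Benjamini-Hochberg adjustment over 30367 probes. Calls needed an adjusted p under 0.05 and a change of 2-fold or more. The steps were tested on simulated data.

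Of the probes, 22855 have a gene name, 17673 of them through an accession in a RefSeq gene table, giving 19245 names. A gene was represented by its brightest probe over the 22 arrays. Where a probe was well above background on no array of one set, its fold is a bound for the main processing only. After normexp the log2 differences of Foxa2 (1.68) and Chrm3 (1.46) were smaller folds than their bounds. So were those of Muc20 (1.34), Tmprss2 (1.66), Cldn18 (1.31), Atp6v1b1 (1.15) and Prlr (1.07). Over the alternatives the difference of Aipl1 fell to 2.44, also a smaller fold than its bound. For genes with bounds, the dim set was given, per array, the higher of its own signal and the lowest signal among probes well above background.

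Members, gene lists and tests were chosen with earlier results of these data known. Genes were named by rule: the serous markers, the 15 largest called differences in each direction outside the serous list (filled to 10 with non-overlapping genes), and up to 4 members of each list with the largest statistics. Named outside the rule, after their values were seen, were Ptgs2, Bpifa2, Prpmp5, Bpifb1, Prb3, Dmbt1, Muc5b, Muc19, Etv1, Chrm3, Xbp1, Krt18, Krt8, Cldn7, Tmprss2, Prlr, Scgb1a1, the claudins and the lower probes of Rps19.

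Animal numbers pair OSCC and normal pieces of the same rat. The deviations from the set means of both pieces correlated between -0.23 and 0.22 over animals (median 0.01). Alternatives were other scalings, normexp background correction (offset 50), a filter on dim probes, slide and scan day terms, the animal block, the methods' t-test, single arrays left out and the Vegp2 ratio as a continuous term.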

Additional observations from a re-analysis of the deposited data

Results flagged for a closer look

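For each named gene, the highest and lowest array of each set of OSCC pieces were checked for a gap that is large against the range of the set. Of 314 such groups 23 held one, by a limit set so that chance passes about 1 in 20. All values are log2 expression with the nearest other array of the set in brackets, and what set these arrays apart was not tested.

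Animal 24, gland-rich, stood apart for the most genes of its set. It was high for Ctf1 at -3.14 (-5.31), Cfd, an adipocyte complement factor, at 4.11 (2.92), and Myod1, a muscle factor, at 1.56 (-0.44). It was low for Gstm1 at 1.03 (2.54), Ccnd2 at 1.07 (2.58), Tp63 at 0.77 (2.61) and Rpl3 at 5.25 (6.07). In the same set animal 4 was low for Fcgbp at -0.19 (2.60) and animal 9 for RT1-T18 at 2.09 (2.76).

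Among gland-poor pieces animal 21 was high for the mucous genes Spdef at -1.19 (-5.09) and Muc19 at 1.14 (-6.07), and for the cytotoxic cell gene Nkg7 at 0.04 (-1.85). It was low for Sox10 at -3.72 (-2.44), Foxn1 at -5.00 (-3.85) and Chrng at -6.06 (-2.66). Animal 22 was low for Bhlha15 at -6.01 (-3.24), Derl3 at -3.25 (-1.44), Nfil3 at -1.04 (0.03), Slc16a3 at -0.43 (1.93), Ccne1 at -3.29 (-0.96), and the macrophage genes Aif1 at 1.04 (2.51) and Mpeg1 at -4.21 (-1.81). Animal 25 was low for Tgm3 at 4.93 (5.63).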

How the results depend on the processing

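Of 196 probes called between the sets, other settings gave 172 to 226, except 77 after normexp, 30 with slide as a fixed term, 98 with the Vegp2 ratio as a continuous term, 86 with the methods' t-test and Benjamini-Hochberg adjustment, and 721 at its unadjusted p (639 higher, 82 lower), while without animals 21, 22 and 24 it was 144 (91 shared). Leaving out single arrays gave 113 to 326: 326 without animal 4, 113 without 9, 126 without 13 and 124 without 16. Where not named otherwise, the cause was not tested, but slide as a fixed term leaves 2 slides with both sets. The pairing by animal as a replicate block, OSCC minus normal, gave 206 probes (173 higher, 33 lower, 158 shared), and with this block Cldn10, Cldn7, RT1-T18, Cldn2 and Cldn24 were lost (adjusted p = 0.07, 0.054, 0.087, 0.058 and 0.28) and Spdef and Plgrkt gained (both 0.031). The normal pieces stayed at 0 except for 266 at the unadjusted t-test p, with 0 to 1 when single arrays were left out (1 without animal 24).

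None of the named genes that were called turned sign under any alternative, where the dimmer probe of Rps19, the further probes of Pax1, Gng13 and Prp25l1 and the unnamed lower probes were not followed. Of these genes 13 lost their call after normexp, 29 with slide as a fixed term, 19 with the Vegp2 ratio as a continuous term and 17 with the methods' t-test and Benjamini-Hochberg adjustment. LOC100363867, Prp25l1, Fcgbp, Svs6, Fcgbpl1, Kcne1, Aipl1, LOC100362849 and Rasal1 passed in all 26 alternatives. Normexp moved the median of all probes from -0.11 to 0.48, and slide and scan day terms to 0.16 and 0.11. Probes under background carry no order among themselves, and the number of arrays limits what could be called.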

Other observations

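Claudins, looked at as a family after their values were seen, were higher in some members and not in others. Of 22 claudin genes on the array 7 were called higher in gland-rich pieces and 0 lower, with a median difference of 0.48, where 0.733% of all genes were called higher. Besides Cldn10, Cldn3 and Cldn7 these were Cldn22 (5.69 ± 0.71, adjusted p = 0.003), Cldn2 (3.32 ± 0.62, adjusted p = 0.036), Cldn18 (at least 4.65-fold, adjusted p = 0.0024) and Cldn24 (at least 2.16-fold, adjusted p = 0.047). Cldn1, Cldn4, Cldn12, Cldn17 and Cldn23, which were well above background on every OSCC array, differed by -0.28 to 0.22 and were not called. Cldn2 lost its call without any one animal but 4 or 21 (adjusted p up to 0.12) and Cldn24 without any but 4 (up to 0.16), and Cldn22 lost it with the Vegp2 ratio as a continuous term (0.083). With slide as a term Cldn2, Cldn24 and Cldn18 were lost (0.08 to 0.12), and after normexp also (0.18, 0.57 and 0.57).

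Other genes named after their values were seen were Scgb1a1, the club cell secretory protein, which rose by 5.82 ± 1.03 (adjusted p = 0.025), Tmprss2, an epithelial serine proteinase (at least 7.3-fold, adjusted p = 0.0026), and Prlr, the prolactin receptor (at least 2.58-fold, adjusted p = 0.021). Aipl1, a chaperone known from photoreceptors and named by rule among the 15 largest differences, was at least 15.3-fold higher (adjusted p = 0.00027). Scgb1a1 lost its call without any one animal but 4 or 11 (adjusted p up to 0.092), and Prlr without 9, 11, 13, 16, 24, 25 or 26 (up to 0.08). With slide as a term Scgb1a1, Prlr and Tmprss2 were lost (0.12, 0.11 and 0.061), and after normexp Prlr and Tmprss2 (0.57 and 0.43).

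Promoters of the 125 genes called higher outside the serous list were searched on both strands for 3 motifs, CATATG, a core bound by Bhlha15, TGTTTAC, of forkhead factors such as Foxa2, and CCGGAAGT, of ETS factors such as Etv1, in windows of 300 bases around the gene start (RefSeq, build GRCr8). Of 93 genes with a listed promoter, CATATG was present in 2 (2.15%), Ccl28 and Or4a69, against 2.73% of all genes tested with one. TGTTTAC was present in 2 (2.15%), Cldn10 and Atp6v1b1, against 2.88%, and CCGGAAGT in 1 (1.08%), Cldn7, against 5.89%. A match is a description of letters and not of binding.

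Gene lists with no member called, and not described above, were ciliated cells (21 genes, median -0.08), endothelium (27, -0.39), proteinases (34, -0.54), glycolysis and hypoxia (27, -0.27), squamous fate and tumor growth control (37, -0.46), the circadian clock (18, 0.39), cytochromes P450 and conjugation (44, -0.06), denervation and myogenesis (20, 0.22) and cytosolic ribosomal proteins (31, -0.15). Hair-type keratins and papilla regulators had a median of -0.30 over 31 genes in the OSCC pieces, also with none called. Unadjusted p-values under 0.05 in these lists numbered 0 to 3.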
